A study of Mus musculus with 19 samples.

Results

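Heat shock chaperones were measured as transcripts in mouse hippocampus through 10 genes, taken from 25603 genes tested on each of 19 arrays. The 10 genes were listed by name, and their probes were found by matching probe accessions to RefSeq transcripts. Of the 10, 7 encode cytosolic proteins (Hsp90aa1, Hsp90ab1, Hspa8, Hspa1a, Hspa1b, Dnajb1 and Hsph1), 1 encodes a protein of the endoplasmic reticulum (Hspa5) and 2 encode mitochondrial proteins (Hspd1 and Hspe1). They had 21 probes in all, and every one of these was well above background on all 19 arrays, so no gene dropped out through a filter on dim signal.

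The mice were 8 months old and fell into 3 groups. The 6 APP/PS1 mice given urolithin A (UA) received it at 200 mg per kg per day in DMSO by gavage between 6 and 8 months of age. The 7 APP/PS1 vehicle mice and the 6 wild-type (WT) littermates were gavaged with DMSO alone. APP/PS1 mice carry mutant APP and PS1 transgenes, expressed in this strain from a mouse prion promoter, and deposit amyloid in the brain. UA is formed by gut bacteria from ellagitannins of plant food. There was no WT group on UA, so an effect of UA outside the transgenic background was not measured. Comparing APP/PS1 vehicle with WT asks how the amyloid model differed, and comparing UA with APP/PS1 vehicle asks what went with the compound; both of these use the same vehicle arrays.

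Chaperones bind unfolded protein and keep it from aggregating until it folds or is degraded. HSP70 proteins take hold of short exposed stretches, J-domain proteins bring them substrates and start ATP hydrolysis, and HSP110 proteins exchange the nucleotide. HSP90 proteins act later, on nearly folded clients such as kinases and steroid receptors. Most cells hold a constitutive supply (Hspa8, Hsp90ab1), while heat shock factor 1 raises an inducible set (Hspa1a, Hspa1b, Dnajb1, Hsph1, Hsp90aa1) under stress. The endoplasmic reticulum and the mitochondrion each have their own HSP70 and other chaperones, which is why the compartments were set side by side.

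Levels are log2 of the green processed signal of a gene's brightest probe minus the array's 75th percentile, so a level of 0 is the 75th percentile. Levels of different probes cannot be ranked as amounts of RNA, because probes differ in how well they bind. In whole hippocampus, fewer cells of a type and less RNA per cell cannot be told apart. On each array 51.4% to 59.4% of probes were well above background. The 75th percentile signal was 616 to 938 in UA, 450 to 956 in APP/PS1 vehicle and 787 to 1199 in WT arrays. The labels do not say whether arrays came from separate litters or days, so p-values measure the spread between these arrays. The arrays lay on 3 slides. Slide 1 held 2 APP/PS1 vehicle and all 6 WT arrays, slide 2 held 3 UA and 5 APP/PS1 vehicle arrays, and slide 3 held 3 UA arrays. Markers of hippocampal neurons were measured on every array, with a summed level of 6.74 to 7.12 in UA, 6.75 to 7.11 in APP/PS1 vehicle and 6.76 to 6.93 in WT arrays.

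In the cytosol and the mitochondrion, 4 chaperone transcripts were lower in APP/PS1 vehicle than in WT hippocampus, and none was higher. These 4 of 10 were Hsp90aa1, Hsp90ab1 and Hspa8 in the cytosol and Hspd1 in the mitochondrion, against a background of 5.06% of all genes called in either direction, 2.38% lower and 2.68% higher (1296, 609 and 687 of 25603 genes, limma adjusted p under 0.05). The reductions were modest, between 1.21-fold and 1.37-fold. All 7 cytosolic genes had differences below 0, with a median of -0.35, while 49.6% of all genes tested were below 0 and their median difference was 0.003. That share depended on brightness. It was 40.3% among genes with a mean level of 0 or under, and 56.5% to 63.8% in the brighter classes. The cytosolic genes all had mean levels above 0, the lowest being Hspa1b at 0.90. Hspa5 and Hspe1, from the endoplasmic reticulum and the mitochondrion, had differences of 0.02 and 0.12 and did not pass the test.

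**Figure D1:**
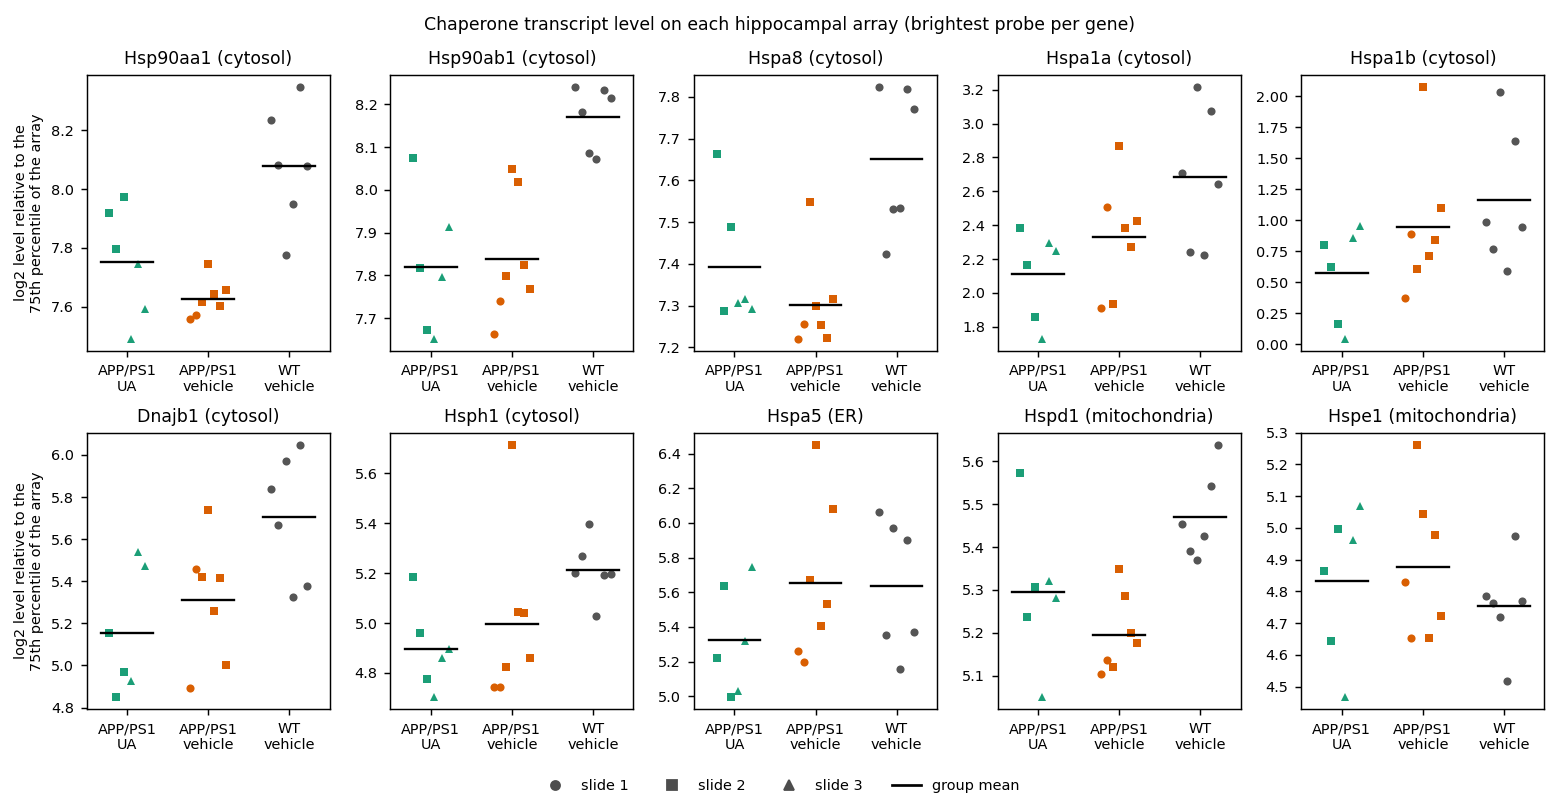
Level of each chaperone transcript on every array, as log2 relative to the array's 75th percentile, with each gene's own scale; points are arrays, their shape gives the slide and the bar is the group mean. For Hsp90aa1, Hsp90ab1 and Hspd1 all APP/PS1 vehicle arrays sit below all WT arrays, while for Hspa5 and Hspe1 the 3 groups overlap.

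Hsp90aa1, the stress-inducible HSP90, had the largest of the called differences. Its level was 7.56 at the lowest, 7.62 at the median and 7.74 at the highest in APP/PS1 vehicle arrays, against 7.78, 8.08 and 8.35 in WT arrays. The vehicle arrays lay close together and every one was below every WT array. The means were 7.63 ± 0.06 (SD, n = 7) in APP/PS1 vehicle and 8.08 ± 0.20 (n = 6) in WT arrays, a log2 difference of -0.45 (SE 0.09), which is 1.37-fold lower (limma adjusted p = 0.0105).

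Hsp90ab1, the constitutive HSP90, showed the same separation with a narrower WT group. Levels ran from 7.66 through a median of 7.80 to 8.05 in APP/PS1 vehicle arrays, and from 8.07 through 8.20 to 8.24 in WT arrays. The highest vehicle array thus fell just short of the lowest WT array. The mean was 7.84 ± 0.14 in APP/PS1 vehicle and 8.17 ± 0.07 in WT arrays (SD, n = 7 and 6), 1.26-fold lower (log2 difference -0.33, SE 0.08, limma adjusted p = 0.0244).

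Hspa8, the constitutive cytosolic HSP70, was at 7.22, 7.26 and 7.55 in APP/PS1 vehicle arrays (lowest, median and highest) and at 7.42, 7.65 and 7.82 in WT arrays. The groups overlapped through vehicle replicate 3, the 7.55 array, while the other 6 vehicle arrays lay below the lowest WT array. Replicate 3 was the dimmest of all the arrays, with a 75th percentile signal of 450 and 51.4% of probes well above background. The difference was 1.27-fold lower (log2 difference -0.35, SE 0.09, limma adjusted p = 0.0291). The mean was 7.30 ± 0.11 in APP/PS1 vehicle and 7.65 ± 0.17 in WT arrays (SD, n = 7 and 6).

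Hspd1, the mitochondrial chaperonin HSP60, ran from 5.10 through a median of 5.18 to 5.35 in APP/PS1 vehicle arrays and from 5.37 through 5.44 to 5.64 in WT arrays. These ranges did not overlap. The mean of 5.20 ± 0.09 in APP/PS1 vehicle was 1.21-fold below the mean of 5.47 ± 0.10 in WT arrays (SD, n = 7 and 6, log2 difference -0.27, SE 0.08, limma adjusted p = 0.0442). In all, 3 of the 10 genes had every APP/PS1 vehicle array below every WT array, as did 0.914% of all genes.

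The other 4 cytosolic genes, Dnajb1, Hsph1, Hspa1a and Hspa1b, had differences below 0 between APP/PS1 vehicle and WT and did not pass the test. Dnajb1, the J-domain partner that heat shock induces with HSP70, was at 4.89, 5.42 and 5.74 in APP/PS1 vehicle arrays and at 5.32, 5.75 and 6.05 in WT arrays (lowest, median and highest), a log2 difference of -0.39 (SE 0.16, limma adjusted p = 0.146). Hsph1, an HSP110 nucleotide exchange factor, was at 4.74, 4.86 and 5.71 in APP/PS1 vehicle and at 5.03, 5.20 and 5.40 in WT arrays, a difference of -0.22 (SE 0.13, limma adjusted p = 0.308). For Hsph1 a single vehicle array, replicate 4, lay above every WT array and 4 of 7 vehicle arrays lay below every WT array. Without that array the Hsph1 difference was -0.34 and passed (limma adjusted p = 0.0395).

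Hspa1a and Hspa1b encode the same inducible HSP70 protein from neighbouring genes, and their probes may each catch transcript of the other, so their values are uncertain as values of single genes. The 250 bases upstream of their RefSeq starts (GRCm38.p6) are shown because the copies are nearly identical there too. Capitals mark a match to GAANNTTC, a pair of inverted units of the heat shock element.
Hspa1a, chr17:34972157-34972406, minus strand: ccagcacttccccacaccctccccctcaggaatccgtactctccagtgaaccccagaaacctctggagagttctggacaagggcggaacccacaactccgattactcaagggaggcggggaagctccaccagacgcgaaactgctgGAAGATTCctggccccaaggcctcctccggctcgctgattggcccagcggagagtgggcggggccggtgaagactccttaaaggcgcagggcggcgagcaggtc
Hspa1b, chr17:34959239-34959488, minus strand: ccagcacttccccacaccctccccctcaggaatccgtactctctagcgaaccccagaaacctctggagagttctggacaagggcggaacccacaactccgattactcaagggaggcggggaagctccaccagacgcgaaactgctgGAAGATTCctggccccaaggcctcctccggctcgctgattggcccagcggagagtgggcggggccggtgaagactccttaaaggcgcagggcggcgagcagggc
The windows shared 247 of 250 bases. The 3 substitutions from Hspa1a to Hspa1b, counted from 1 at the 5′ end of the window, were C44T, T47C and T249G. Searched on both strands, GAANNTTC or TTCNNGAA occurred in 12.8% of the 250-base windows of 32851 RefSeq starts, so the match by itself is common. The Hsph1 windows overlap and held 1 match, the same in each. The Dnajb1 windows held none, and the window at chr8:83608298-83608547 lies downstream of the other RefSeq Dnajb1 start. Only these exact letters in 250 bases were searched, so the search cannot show that a heat shock element is absent.

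Hspa1a levels were 1.91, 2.39 and 2.87 in APP/PS1 vehicle arrays and 2.23, 2.68 and 3.22 in WT arrays (lowest, median and highest), a difference of -0.36 (SE 0.18, limma adjusted p = 0.237). Hspa1b levels were 0.37, 0.84 and 2.07 in APP/PS1 vehicle and 0.59, 0.96 and 2.03 in WT arrays, a difference of -0.22 (SE 0.27, limma adjusted p = 0.637). Both genes overlapped widely between the groups, and vehicle replicate 4 held the highest vehicle value of each. The 95% intervals, -0.74 to 0.02 for Hspa1a and -0.78 to 0.34 for Hspa1b, include differences as large as those of the called genes as well as none.

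Hspa5, the HSP70 of the endoplasmic reticulum (BiP), had nearly the same mean in both genotypes. Its levels were 5.20, 5.53 and 6.45 in APP/PS1 vehicle arrays and 5.16, 5.64 and 6.06 in WT arrays (lowest, median and highest). Both groups spread widely and overlapped. The difference was 0.02 (SE 0.21, limma adjusted p = 0.964), with a 95% interval from -0.42 to 0.46. The gene's promoter is shown because it carries, in capitals, a match to the endoplasmic reticulum stress element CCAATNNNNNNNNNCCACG.
Hspa5, chr2:34771840-34772089, plus strand: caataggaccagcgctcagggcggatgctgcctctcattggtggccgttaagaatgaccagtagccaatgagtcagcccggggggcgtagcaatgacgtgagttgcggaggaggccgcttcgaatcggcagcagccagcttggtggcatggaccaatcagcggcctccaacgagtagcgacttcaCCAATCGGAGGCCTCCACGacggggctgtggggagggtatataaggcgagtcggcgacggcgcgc
In the 250 bases upstream of RefSeq starts, 0.113% of 32851 windows matched this element on either strand (37 windows), and among the windows of the other chaperone genes none did. Windows were found for 7 of the 10 genes.

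Hspe1, the HSP10 lid of the HSP60 chaperonin, was at 4.65, 4.83 and 5.26 in APP/PS1 vehicle arrays and at 4.52, 4.77 and 4.97 in WT arrays (lowest, median and highest). The groups overlapped. The difference was 0.12 (SE 0.12, limma adjusted p = 0.531), in the opposite direction to that of its partner Hspd1.

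Hspd1 and Hspe1 lie head to head, with their products working as a single folding chamber. Their shared region is shown with capitals marking a heat shock element of 4 inverted units (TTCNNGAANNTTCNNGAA or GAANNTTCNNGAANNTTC).
Hspe1, chr1:55087898-55088147, plus strand: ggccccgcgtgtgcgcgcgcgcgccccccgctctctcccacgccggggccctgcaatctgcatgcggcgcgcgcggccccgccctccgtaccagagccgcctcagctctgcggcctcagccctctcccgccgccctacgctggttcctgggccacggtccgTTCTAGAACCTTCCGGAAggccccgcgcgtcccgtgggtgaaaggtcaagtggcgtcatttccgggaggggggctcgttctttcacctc
The same element stands in the window of the RefSeq Hspd1 start that lies 216 bases from the Hspe1 start, read there on the minus strand (chr1:55087933-55088182). It was absent from the window of the other Hspd1 start. An element of 4 units occurred in 7 of 32851 windows (0.0213%), and one of 3 units in 0.466%. A match is a description of letters and no evidence that a factor bound there in these mice.

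Because both values of a ratio come from the same array, the ratio of Hspd1 to Hspe1 does not depend on how arrays were scaled. Its log2 value was -0.14, 0.31 and 0.63 in APP/PS1 vehicle arrays and 0.57, 0.66 and 0.91 in WT arrays (lowest, median and highest). A single vehicle array, at 0.63, reached into the WT range and the other 6 lay below it. The mean ratio was 0.32 ± 0.25 in APP/PS1 vehicle and 0.71 ± 0.14 in WT arrays (SD, n = 7 and 6), a difference of -0.40 (2-sided exact permutation test, p = 0.0035, adjusted over 9 ratio tests 0.0315, where 0.000583 is the smallest p possible). Leaving out each of the 13 arrays in turn gave -0.45 to -0.32 with an exact permutation p of 0.00216 to 0.0114. Within slide 1 the difference was -0.34, from 2 APP/PS1 vehicle and 6 WT arrays. This pair was compared with the values of the single genes already known, so its p is not independent of them, and a ratio shows unequal change without saying which transcript changed.

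The other ratios set the constitutive cytosolic HSP70 against the reticular and the inducible one. Hspa8 over Hspa5 averaged 1.65 ± 0.44 in APP/PS1 vehicle and 2.01 ± 0.34 in WT arrays, a difference of -0.37 (exact permutation test, p = 0.126, adjusted 0.199), and within slide 1 the difference was -0.0045. Hspa8 over Hspa1a averaged 4.97 ± 0.39 in APP/PS1 vehicle and 4.97 ± 0.37 in WT arrays, a difference of 0.01 (exact permutation test, p = 0.973). Neither ratio passed the test.

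**Figure D2:**
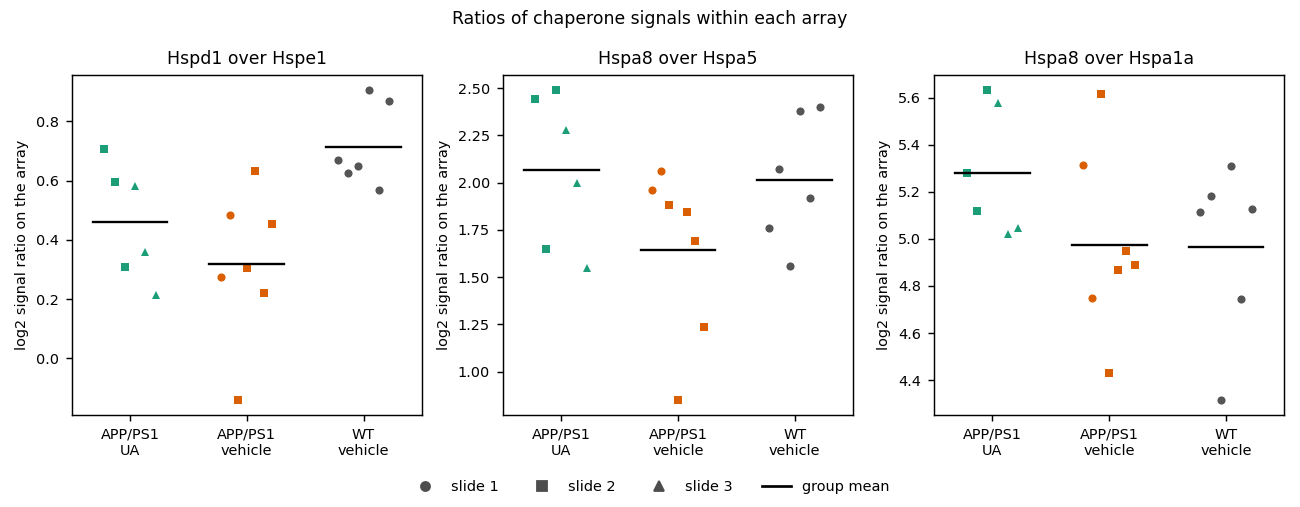
Log2 ratio of the signals of 2 chaperone probes on the same array, by group; points are arrays, their shape gives the slide and the bar is the group mean. Hspd1 over Hspe1 lies between -0.14 and 0.63 on the APP/PS1 vehicle arrays and between 0.57 and 0.91 on the WT arrays, while Hspa8 over Hspa1a has nearly the same mean in both groups.

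Genes with several probes gave mostly the same direction at each. Both Hsp90aa1 probes were called lower in APP/PS1 vehicle arrays when probes were tested singly (differences -0.45 and -0.48), as were both Hspd1 probes (-0.27 and -0.26). Of 21 probes, 15 had differences below 0 and 6 were called, all lower, against 4.18% of all 33454 probes called in either direction and 1.89% called lower. The 4 Hspa8 probes all had differences below 0, at -0.35, -0.29, -0.27 and -0.07 from the brightest to the dimmest, and the 3 dimmer ones did not pass (limma adjusted p = 0.0849, 0.133 and 0.764 over all probes). All 3 Hspe1 probes had differences above 0 (0.12, 0.29 and 0.10), and so had the 3 Hspa5 probes (0.02, 0.16 and 0.13), with none passing.

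**Figure D3:**
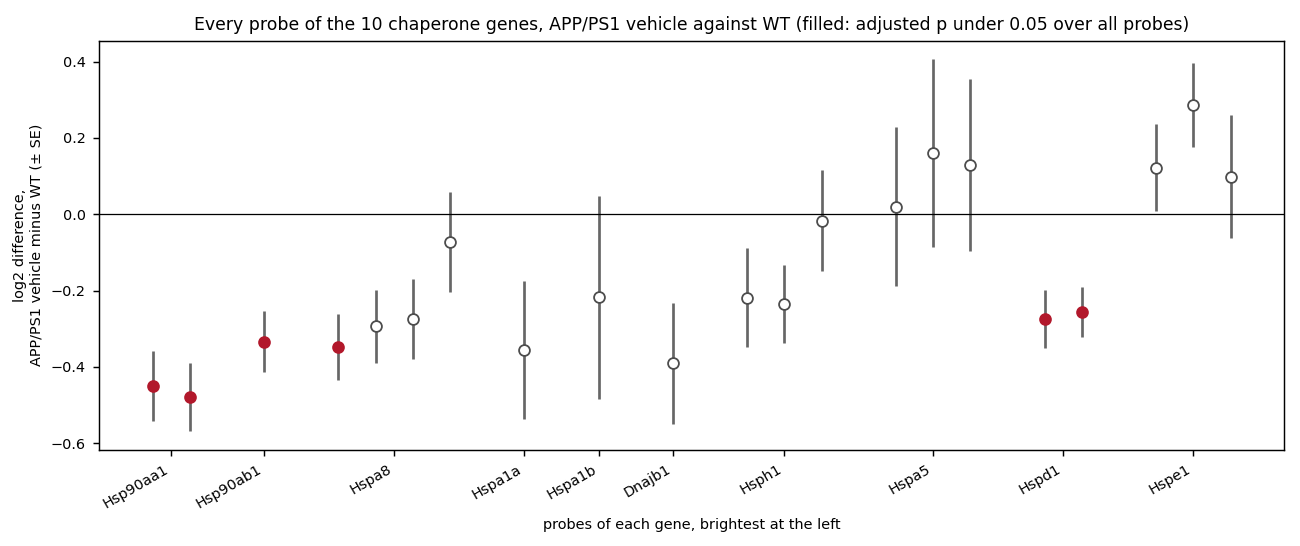
Log2 difference of APP/PS1 vehicle minus WT with its SE for each of the 21 probes, grouped by gene with the brightest probe at the left; filled points passed the test over all probes. The 2 probes of Hsp90aa1 and of Hspd1 are filled and below 0, and the 3 probes of Hspe1 and of Hspa5 are all above 0.

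Genes with bright probes were called more often than others, and this class holds 3 of the 4 called chaperones. Among the 731 genes with a mean level over 6, 11.6% were called between APP/PS1 vehicle and WT, and 71.8% of those calls were lower. Hsp90aa1, Hsp90ab1 and Hspa8 belong to this class, and Hspd1 to the class with levels between 4 and 6, of which 9.02% were called.

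Leaving out 1 array at a time ended some of the calls. Hsp90aa1 passed in all 19 fits that left out 1 array (limma adjusted p from 0.00315 to 0.0311). Hsp90ab1 did not pass without vehicle replicate 1 (limma adjusted p = 0.0554) or without WT replicate 2, 5 or 6 (0.0571, 0.0571 and 0.0632). Hspa8 did not pass without vehicle replicate 1, 2 or 6 or WT replicate 1, 5 or 6, with limma adjusted p between 0.0521 and 0.0805. Hspd1 was the least firm: it did not pass without any one of UA replicates 2, 5 and 6, vehicle replicates 1, 2, 3, 6 and 7 and WT replicates 1, 2, 4, 5 and 6, with limma adjusted p between 0.0522 and 0.116. In these 19 fits its difference stayed between -0.30 and -0.24.

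Slide and genotype were largely confounded, since all WT arrays lay on slide 1. Within slide 1, from 2 vehicle and 6 WT arrays, the differences were -0.51 for Hsp90aa1, -0.47 for Hsp90ab1, -0.41 for Hspa8 and -0.35 for Hspd1. Each was larger than over all arrays, and with 2 vehicle arrays none passed (limma adjusted p = 0.157, 0.107, 0.174 and 0.154). With slide as a block in the fit of all arrays the differences were the same and the limma adjusted p were 0.0970, 0.0990, 0.153 and 0.155. On slide 1 the Hspa5 difference was -0.41, against 0.02 over all arrays.

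Cell type markers moved between the same groups. The 8 neuron markers had a median difference of -0.27 with 0 called, and their summed level was 8.87 to 9.20 in APP/PS1 vehicle and 9.13 to 9.52 in WT arrays. Of 15 synapse markers 4 were called lower (median -0.20, summed level 8.25 to 8.72 in APP/PS1 vehicle and 8.53 to 8.92 in WT arrays). Of 14 microglia markers 12 were called higher (median 0.83, summed level 6.79 to 7.10 in APP/PS1 vehicle and 5.90 to 6.26 in WT arrays). With the neuron marker level of each array added to the fit, a choice made after seeing the data, the differences were -0.32 for Hsp90aa1, -0.17 for Hsp90ab1, -0.24 for Hspa8 and -0.17 for Hspd1, and none passed (limma adjusted p = 0.302, 0.496, 0.462 and 0.558). The 12 hippocampal neuron markers had a median of 0.01 with none called, and of 8 astrocyte markers 3 were called higher (median 0.27, summed level 9.01 to 9.52 in APP/PS1 vehicle and 9.18 to 9.54 in WT arrays). Choroid plexus markers had the largest median of the lists, 1.76, with 0 of 12 called and a summed level of 0.63 to 7.05 in APP/PS1 vehicle and 1.69 to 6.42 in WT arrays. Although these ranges overlap, the mean choroid plexus level was 0.38 in APP/PS1 vehicle and -1.49 in WT arrays, so it was uneven between the groups. With the choroid plexus level added to the fit, Hspd1 did not pass (difference -0.24, limma adjusted p = 0.0818) and the other 3 did. The neuron marker level itself had a mean of 5.68 in APP/PS1 vehicle and 5.91 in WT arrays. A fit that includes it therefore cannot fully separate it from genotype. Over all genes, that fit left 1 gene called lower, against 609 in the reported fit. The part of neurons, microglia, astrocytes or other cells in these differences was not tested.

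None of the 10 chaperone transcripts passed the test between UA and APP/PS1 vehicle hippocampus, as none of the 25603 genes did (background 0%, with 3958 genes at an unadjusted p under 0.05). For the 4 transcripts that were lower in APP/PS1 vehicle than in WT, the differences between UA and APP/PS1 vehicle lay between -0.02 and 0.12. Hsp90aa1 was at 7.49, 7.77 and 7.97 in UA arrays, against 7.56, 7.62 and 7.74 in APP/PS1 vehicle arrays, a log2 difference of 0.12 (SE 0.09, limma adjusted p = 0.518). The UA arrays spread more widely, on both sides of the vehicle range. The 95% interval ran from -0.07 to 0.32, so a rise of up to 1.25-fold and a small fall are both within it.

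For Hsp90ab1 the levels were 7.65, 7.81 and 8.08 in UA and 7.66, 7.80 and 8.05 in APP/PS1 vehicle arrays, nearly the same range (difference -0.02, 95% interval -0.18 to 0.15). For Hspa8 they were 7.29, 7.31 and 7.66 in UA and 7.22, 7.26 and 7.55 in APP/PS1 vehicle arrays (difference 0.09, interval -0.09 to 0.27). For Hspd1 they were 5.05, 5.29 and 5.57 in UA and 5.10, 5.18 and 5.35 in APP/PS1 vehicle arrays (difference 0.10, interval -0.06 to 0.26). UA replicate 1, the only UA array whose sex read as female, held the highest UA value of the last 3 genes. Within slide 2, from 3 UA and 5 APP/PS1 vehicle arrays, the differences were 0.24 for Hsp90aa1, -0.04 for Hsp90ab1, 0.15 for Hspa8 and 0.15 for Hspd1, with limma adjusted p between 0.904 and 0.966.

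The other 6 genes had differences below 0 between UA and APP/PS1 vehicle, none of which passed. Hspa5 levels were 4.997, 5.27 and 5.74 in UA and 5.20, 5.53 and 6.45 in APP/PS1 vehicle arrays, a difference of -0.33 (SE 0.21, limma adjusted p = 0.450, 95% interval -0.77 to 0.11). Hspa1b was at 0.05, 0.71 and 0.96 in UA and 0.37, 0.84 and 2.07 in APP/PS1 vehicle arrays (difference -0.37, SE 0.27, limma adjusted p = 0.513). Both groups overlapped for these genes. The differences were -0.22 for Hspa1a, -0.16 for Dnajb1, -0.10 for Hsph1 and -0.04 for Hspe1, with limma adjusted p between 0.578 and 0.883. Within slide 2 the differences of Hspa5 and Hspa1b were both -0.54 (limma adjusted p = 0.904). Immediate early genes, which neuronal activity and handling induce, had a median difference of -0.65 with 0 of 10 called, and their summed level was 5.28 to 5.66 in UA, 5.32 to 7.18 in APP/PS1 vehicle and 5.89 to 6.65 in WT arrays; their part in these differences was not tested.

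The ratio of Hspd1 to Hspe1 lay between the other groups in UA arrays, at 0.46 ± 0.19 in UA, 0.32 ± 0.25 in APP/PS1 vehicle and 0.71 ± 0.14 in WT arrays (SD, n = 6, 7 and 6). It differed from APP/PS1 vehicle by 0.14 (exact permutation test, p = 0.286, adjusted over 9 ratio tests 0.368) and from WT by -0.25 (p = 0.039, adjusted 0.175 by the same exact test). Hspa8 over Hspa5 was 2.07 ± 0.40 in UA arrays, 0.42 above APP/PS1 vehicle (exact permutation p = 0.103, adjusted 0.199) and 0.05 above WT. None of the ratios with UA passed after adjustment.

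Between UA and WT hippocampus 9 of the 10 genes had differences below 0 and none passed the test, against a background of 0.0937% of genes called (24 of 25603, with 2261 genes at an unadjusted p under 0.05). Of all genes tested 54.9% had differences below 0 in this comparison, and of the genes with a level over 6, 67.2% had. Hsp90ab1 came nearest, at 7.65, 7.81 and 8.08 in UA and 8.07, 8.20 and 8.24 in WT arrays, with 5 of 6 UA arrays below every WT array (difference -0.35, SE 0.08, limma adjusted p = 0.135). Hspa1b, Hspa1a and Dnajb1 had the widest differences. Dnajb1 was at 4.85, 5.06 and 5.54 in UA and 5.32, 5.75 and 6.05 in WT arrays (difference -0.55, SE 0.16, limma adjusted p = 0.326). Hspa1a was at 1.73, 2.21 and 2.38 in UA and 2.23, 2.68 and 3.22 in WT arrays (difference -0.57, SE 0.19, limma adjusted p = 0.398). For both, all 6 UA arrays lay below the WT mean, although the groups overlapped. The remaining differences were -0.59 for Hspa1b, -0.32 for Hsp90aa1, -0.32 for Hsph1, -0.31 for Hspa5, -0.26 for Hspa8, -0.17 for Hspd1 and 0.08 for Hspe1. No slide held both UA and WT arrays. With slide as a block, which then rests on the vehicle arrays that slides 1 and 2 share between them, all 10 differences were below 0, from -1.07 for Hspa1b to -0.11 for Hspe1, and none passed (limma adjusted p from 0.944 to 0.963).

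**Figure D4:**
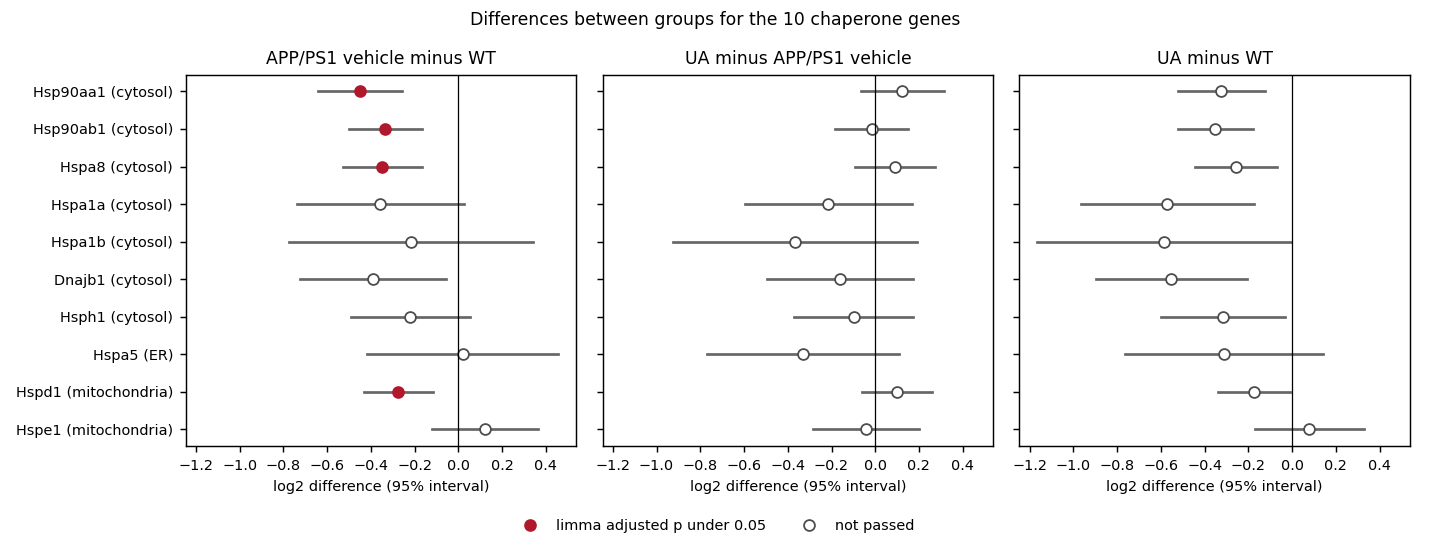
Log2 difference with its 95% interval, not adjusted for the number of genes, for the 10 chaperone genes in the 3 comparisons; filled points had a limma adjusted p under 0.05 over all genes. The 4 filled points are all in the comparison of APP/PS1 vehicle with WT and lie between -0.45 and -0.27.

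Within groups, some of the chaperone transcripts varied together across arrays. After each gene was taken as deviations from its group means, all 45 pairs had a Pearson r above 0 (0.05 to 0.93, median 0.44), and 13 had a permutation p under 0.05 after adjustment over the 45 pairs, 6 of them by Spearman's rho as well. Of all pairs of genes with a plain symbol 50.5% had an r above 0 (median 0.005), and of pairs of genes with a level over 4, 57.8% had (median 0.09). Each array's values share 1 scaling and 1 RNA sample. Within slide 1, 3 of the 45 pairs had an r below 0, and within slide 2, 11 had, the lowest being Hspa1a with Hspe1 at -0.35. Hspa1a and Hspa1b had r = 0.93 (rho 0.93, permutation adjusted p = 0.00045 for each, which is the smallest that the resamples allow; 0.92 without the 2 farthest arrays, and 0.94 and 0.91 within slides 1 and 2), the pair whose probes may share transcript. Hsp90ab1 and Hspd1 had r = 0.80 and rho = 0.70 (permutation adjusted p = 0.0036 and 0.0183, r = 0.64 without the 2 farthest arrays, and 0.67 and 0.84 within slides 1 and 2). Hspa1b went with Hspa5 at r = 0.79 and rho = 0.75 (permutation adjusted p = 0.00337 and 0.0107, r = 0.68 without the 2 farthest arrays, and 0.71 and 0.84 within slides). Vehicle replicate 4 was the highest vehicle array for both, and without it r was 0.70.

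Ranked over 14892 genes by the same deviations on the 19 arrays, the nearest genes to Hspa5 were Creld2 (r = 0.91), Xbp1 (0.89), Sdf2l1 (0.88), Manf (0.88) and Gspt1 (0.86). Creld2, Sdf2l1 and Manf encode proteins of the endoplasmic reticulum, and Xbp1 a transcription factor of its stress response. Nearest to Hspa1a were Hspa1b (0.93), Rbm26 (0.81), Herpud1 (0.81), Prpf3 (0.79) and Mknk2 (0.79). Among the nearest to Hsp90aa1 were Srcap (0.85), Anapc5 (0.81), Vash1 (0.78) and Col25a1 (0.78), and nearest to Hspd1 were G3bp1 (0.82), Htr5b (0.82), Rpgrip1l (0.80), Hsp90ab1 (0.80) and Chchd2 (0.79). Hspd1's chaperonin partner Hspe1 was not among its 5 nearest.

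The wider chaperone network was read from 85 further genes in 8 classes, of which 84 were tested. Between APP/PS1 vehicle and WT 3 were called, all lower, against 5.06% of all genes called. Differences were below 0 in 52 of 84 (median -0.07), beside 49.6% of all genes tested. The 3 called were the J-domain genes Dnaja2 and Dnajb4 and the HSP90 co-chaperone gene Ppid. Ppid, which encodes a cyclophilin that docks on HSP90, was 1.25-fold lower at 4.17 ± 0.09 in APP/PS1 vehicle and 4.49 ± 0.14 in WT arrays (SD, n = 7 and 6, log2 difference -0.32, SE 0.08, limma adjusted p = 0.0268). Dnajb4 was 1.22-fold lower (difference -0.29, SE 0.07, limma adjusted p = 0.0278) and Dnaja2 1.17-fold lower (difference -0.23, SE 0.06, limma adjusted p = 0.036). A share of calls no larger than that of all genes is not a result about these classes.

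In the same comparison 63.8% of all genes at levels of 2 to 4 had differences below 0, and 61.4% of those at levels of 4 to 6. By class, 7 of 8 cytosolic J-domain genes had differences below 0 (median -0.23), as had 14 of 18 cytosolic co-chaperone genes (median -0.14) and 6 of 8 genes of the TRiC/CCT chaperonin, which folds actin and tubulin (median -0.13). In the last class Cct8 had the smallest p, with a difference of -0.27 (limma adjusted p = 0.0570). Of the other cytosolic HSP70, HSP110 and HSP90 genes 4 of 7 were below 0 (median -0.12), with Hspa12a at -0.44 (limma adjusted p = 0.0788). The 17 endoplasmic reticulum genes were balanced, with 8 below 0 and a median of 0.02, and Dnajb9 had their smallest p (difference -0.17, limma adjusted p = 0.128). Mitochondrial chaperones and proteases were below 0 in 8 of 14 (median -0.03), with the protease subunit gene Afg3l2 at -0.24 (limma adjusted p = 0.0684).

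Small heat shock proteins hold unfolded protein without ATP. Of the 7 genes tested, 1 had a difference below 0 (Hspb7, at -0.68, named after its value was seen) and the median was 0.39, with none passing and no test made between classes. Hspb7 was near the floor, well above background on 6 of 19 arrays (SE 0.40, limma adjusted p = 0.307). Of all genes with a mean level of 0 or under, where Hspb7 and others of the 7 lie, 40.3% had differences below 0 (median 0.07). In the brighter classes 56.5% to 63.8% had. Hspb6 had the smallest p (difference 0.48, SE 0.16, limma adjusted p = 0.0760). The 5 heat shock factor genes had a median of -0.05, with Hsbp1 at -0.19 (limma adjusted p = 0.2998), and Hsf1 itself at -0.05 (SE 0.07, limma adjusted p = 0.650).

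**Figure D5:**
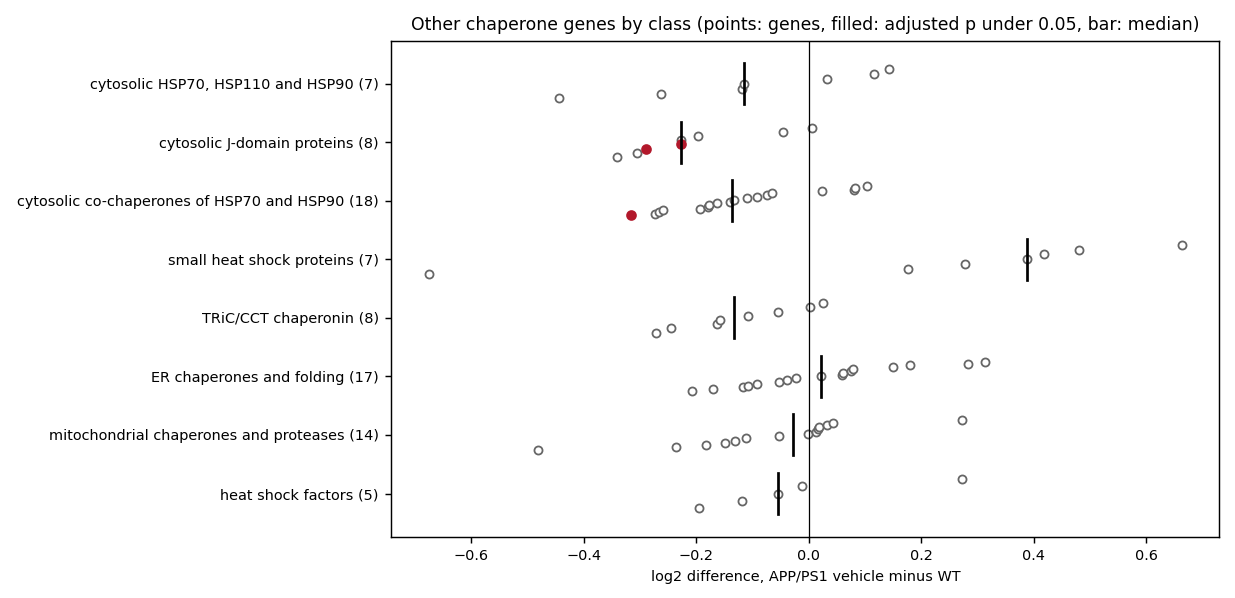
Log2 difference of APP/PS1 vehicle minus WT for 84 other chaperone and folding genes in 8 classes, with the number of genes in brackets; each point is a gene, filled if its limma adjusted p was under 0.05, and the bar is the class median. The 3 filled points lie below 0 in 2 cytosolic classes, and the small heat shock proteins have their median at 0.39.

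Between UA and APP/PS1 vehicle none of the 84 was called, 40 were below 0, beside 51.7% of all genes, and the median was 0.01. The smallest p of each class belonged to Hspa12a (difference 0.29, limma adjusted p = 0.348), Dnaja2 (0.15, 0.251), Unc45a (-0.20, 0.172), Cryab (-0.54, 0.352), Cct4 (0.17, 0.257), Creld2 (-0.47, 0.273), Clpx (0.09, 0.379) and Hsf1 (-0.12, 0.415). Creld2, whose pattern was nearest to that of Hspa5, had a difference of the same sign as Hspa5, and neither passed. Patterns were ranked on deviations from group means, so the ranking does not bear on differences between groups. Between UA and WT none of the 84 was called and 65 were below 0, with a median of -0.08, beside 54.9% of all genes below 0. The genes of smallest p there were Hspa14 (-0.12), Dnajb4 (-0.23), Stip1 (-0.27), Hspb2 (0.41), Cct8 (-0.19), Calr (-0.18), Lonp1 (-0.15) and Hsf1 (-0.17), with limma adjusted p between 0.393 and 0.654.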

How the data were processed

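Hippocampal RNA of 19 mice was hybridised to Agilent arrays, 1 array per mouse. The deposited scanner files hold spot intensity from Feature Extraction 12.0.3.1, run with a protocol for 2 colours; per the file headers, the authors' green processed intensity was background-subtracted and dye-normalized against red. The labels describe a green (Cy3) sample only, so red was not used. The authors' deposited value table is a score, equal within 0.00500 to the log10 of that intensity, centred and divided by its SD on each array (column medians -0.28 to -0.17); it served as an alternative.

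Of 62976 spots, control spots (3671) and non-uniform spots were left out and spots of a probe were averaged, giving 56605 probes. Values are log2 of the processed green intensity minus each array's 75th percentile. The 33454 probes well above background on at least 6 arrays were kept, named through RefSeq accessions (table of assembly GRCm38.p6), and the brightest probe stood for a gene. No spot of the 21 probes was saturated.

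A limma fit (version 3.58.1 in R 4.3.3; lmFit and eBayes, 2-sided, all 19 arrays together) gave the differences between groups, with Benjamini-Hochberg adjustment over 25603 genes and calls at an adjusted p under 0.05. Intervals of 95% are those of the single gene. The fit was tested on simulated data. Ratios were compared by exact permutation, and correlations by 100000 permutations within groups. Sex was read from the arrays and was not balanced. Read as female were 3 of 7 APP/PS1 vehicle, 1 of 6 WT and 1 of 6 UA arrays. Sex was entered only as an alternative. Precision is limited by how many arrays there are. The 10 genes, the lists, the markers and the ratios were chosen with earlier results of these data known. Named genes were the 10 genes, every listed gene called, otherwise the gene of smallest p in each class, and the 5 genes most correlated with Hsp90aa1, Hspa1a, Hspa5 and Hspd1. A gene that this rule named is not reported here. Sequences are RefSeq's (GRCm38.p6).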

Additional observations from a re-analysis of the deposited data

Results flagged for a closer look

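In 3 of 30 groups of values (10 genes in 3 groups), 1 array stood apart from the rest by Dixon's criterion, which chance alone would meet in about 1 in 20 groups. Hspa8 in APP/PS1 vehicle replicate 3 was at 7.55, with the nearest vehicle array at 7.31. Hspa1b in APP/PS1 vehicle replicate 4 was at 2.07, with the nearest at 1.10. Hsph1 in the same array was at 5.71, with the nearest at 5.04. That array also had the highest APP/PS1 vehicle level of Hspa1a (2.87), Dnajb1 (5.74) and Hspa5 (6.45).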

How the results depend on the processing

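Between APP/PS1 vehicle and WT 4 chaperone genes were called. The count was 3 or 4 under 10 of the alternatives to the values, filters, covariates and weights. These 10 include slide as a random block. That fit estimated a correlation of -0.045 between arrays of a slide, so it cannot show what a slide adjustment does. The count was 2 with quantile normalization and with the 2 groups compared alone, 1 with normexp on the median green signal (a mean signal was not used here) and with no filter on dim probes, and 0 with the deposited value table, slide as a fixed block, slide 1 alone, male arrays alone and the neuron marker level as a covariate. Leaving out 1 array gave 1 to 5. With the replicate number as a block it was 0, with Hsp90aa1 at -0.45 (limma adjusted p = 0.0576); same-numbered arrays correlated between -0.55 and 0.39 in their deviations from group means, so the numbers did not pair arrays. The differences of Hsp90aa1, Hsp90ab1, Hspa8 and Hspd1 were below 0 in every alternative run. Both UA comparisons gave 0 under every alternative.

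Directions turned only for differences that had not passed. Hspa5 between APP/PS1 vehicle and WT was -0.0955 with the array median, -0.41 with slide as a block and within slide 1, -0.0457 in male arrays, -0.090 with the choroid plexus level as a covariate, -0.051 with the replicate block and -0.11 to 0.11 with 1 array left out. Hspe1 was -0.014 there with slide as a block and within slide 1, and -0.11 for UA against WT with slide as a block. For UA against APP/PS1 vehicle, Hsp90ab1 was 0.045 with quantile normalization, 0.059 with the array median, 0.014 with sex as a covariate and -0.068 to 0.018 with 1 array left out. Hspe1 was 0.033 with the array median, 0.12 at its dimmest probe and -0.090 to 0.030 with 1 array left out. Hspa8 was -0.049 with the mean of its probes and -0.083, -0.047 and -0.16 at its dimmer probes, and Hsph1 -0.16 to 0.021 with 1 array left out. The cause of these changes was not tested.

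Over all genes the background moved too. Against the 1296 genes called between APP/PS1 vehicle and WT, 76 were called with slide as a fixed block (65 higher, 11 lower), 22 within slide 1, 135 with the neuron marker level (134 higher, 1 lower), 245 in male arrays, 338 with the replicate block, 353 with no dim filter, 436 with the 2 groups alone, 1966 with sex as a covariate, 2251 with slide as a random block, 3665 with array weights and 389 to 2262 with 1 array left out. With its slide correlation of -0.045, the random block made no allowance for slide. The array median shifted the median difference of all genes by -0.12 and gave 327 genes higher and 1630 lower, against 687 and 609. The percentile over detected probes gave 829 and 458, bright-gene centring (chosen after seeing the data) 1007 and 460, and the deposited values gave 323 and 481. Calls between UA and APP/PS1 vehicle, 0 in the reported fit, numbered 1621 with normexp, 61 with the choroid plexus level as a covariate and 10 without vehicle replicate 4. Calls between UA and WT, 24 in the reported fit, ran from 4 with slide as a fixed block to 140 with array weights.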
